A study of Mus musculus with 4 samples.

Results

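The circular RNAs (circRNAs) of the ischemic penumbra of the mouse brain were set against those of sham-operated cortex. Members were chosen from the count columns of these 2 libraries as circRNAs with 10 or more read counts over both, and 3717 of the 23980 circRNAs in the series met this rule. The study sequenced rRNA-depleted total RNA from mouse brain in 4 libraries, of which the infarct core libraries are not used here. The penumbra is the rim of an infarct, where blood flow is low but cells are still alive. It was taken 3 h after MCAO, the permanent occlusion of the middle cerebral artery, in which a filament closes the artery that feeds much of the cortex, and the RNA of 6 mice was mixed before the library was made. The sham library came from mice given the operation without MCAO, and its tissue label is cortex matching both the core and the penumbra, so it may cover a wider area than the penumbra library. The sources used here state neither the strain, age and sex of the mice nor the number and sampling time of the sham mice. With 1 pooled library on each side there is no replicate error, so each difference is between 2 libraries and cannot be told apart from variation between pools.

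A circRNA forms when the end of an exon is spliced back to the start of the same or an earlier exon, which gives a closed loop with no cap and no poly(A) tail. The loop is recognised in reads by its back-splice junction, the joint between those exon ends, and exonucleases that degrade linear RNA from its ends do not attack it. Neurons hold many circRNAs, often made from genes of synapses and signalling, and a host gene can give several circles that share an exon end but differ at the other.

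The junctions below are those of circles that carry the differences described further on. Each shows 20 bases of each side, read 5′ to 3′, with the end of the last exon in lower case and the start of the first exon in capitals, so the joint lies where the capitals begin. They were read from GENCODE M21 transcripts on GRCm38. The Atp2b2, Phip, Ptpn4 and Cfap54 circles and the shorter Rasgrf2 circle stood out in their ratio, and the Pak3 and Specc1 pairs each share 1 side of the junction.
Atp2b2 exons 11 to 13 (chr6:113789753-113796397, minus strand): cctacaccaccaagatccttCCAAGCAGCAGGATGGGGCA
Phip exons 5 to 6 (chr9:82959512-82959851, minus strand): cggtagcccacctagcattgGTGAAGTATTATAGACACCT
Rasgrf2, shorter circle (chr13:91968947-91972285, minus strand): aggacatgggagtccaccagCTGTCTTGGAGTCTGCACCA
Rasgrf2, circle 3 bases longer (chr13:91968947-91972288, minus strand): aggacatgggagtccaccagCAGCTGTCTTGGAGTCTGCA
Ptpn4 exons 6 to 18 (chr1:119691601-119765922, minus strand): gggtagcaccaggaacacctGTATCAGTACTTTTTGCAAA
Cfap54 exons 65 to 66 (chr10:92815881-92821131, minus strand): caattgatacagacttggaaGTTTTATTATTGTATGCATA
Pak3 exons 6 to 12 (chrX:143709648-143744001, plus strand): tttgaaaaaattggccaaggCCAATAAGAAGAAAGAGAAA
Pak3 exons 6 to 17 (chrX:143709648-143775134, plus strand): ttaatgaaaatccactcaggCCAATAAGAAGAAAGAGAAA
Specc1 exons 10 to 12 (chr11:62151870-62161910, plus strand): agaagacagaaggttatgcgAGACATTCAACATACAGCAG
Specc1 exons 9 to 12 (chr11:62147568-62161910, plus strand): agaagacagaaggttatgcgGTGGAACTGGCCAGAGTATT

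The penumbra library held 96349 circRNA counts and the sham library 106558, so 1 count was worth 10.4 CPM in penumbra and 9.38 CPM in sham. CPM is a count scaled to its library's total circRNA count, set to 1000000. Of the 21227 circRNAs seen in either library, 16570 were detected in penumbra and 16226 in sham, and 11569 in both. Thinned to the depth of the penumbra library, sham gave 15681. The members held 70872 of the penumbra counts and 79217 of the sham counts, and came from 1866 host genes. The 17510 circRNAs left out with 1 to 9 counts summed to 25477 counts in penumbra and 27341 in sham, a CPM ratio of penumbra over sham of 1.03 (95% interval 1.01 to 1.05). At the edge of the rule, the 346 members with exactly 10 counts summed to 1595 counts in penumbra and 1865 in sham, and the 369 circRNAs just outside it with 9 counts to 1599 in penumbra and 1722 in sham.

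Most members lay within 2-fold between the penumbra and sham libraries. The median log2 ratio over members was 0.01 and the median absolute log2 ratio 0.53. A circRNA is called here when its CPM ratio is at least 2 or at most 0.5 and its 95% exact conditional interval leaves out 1. Called higher in penumbra were 125 members (3.36%) and called lower 137 (3.69%), together 262 (7.05%), from 119 and 130 host genes. Past the 2-fold limit without regard to the interval were 411 (11.1%) higher and 472 (12.7%) lower. The interval alone left out 1 for 165 (4.44%) higher and 184 (4.95%) lower. By Fisher's exact test (two-sided, Benjamini-Hochberg adjusted over all 3717 members), which compares these libraries and not the conditions, 3 members (0.0807%) had an adjusted p under 0.05, against 421 (11.3%) at an unadjusted p under 0.05. Those 3 were circles of Gm47283, Atp2b2 and Ptk2. This count was 6 with TMM factors, 11 with DESeq2 size factors, 7 with a trend on GC content removed and 16 at a minimum of 30 counts.

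The size of the differences shrank with read count. The median absolute log2 ratio was 0.70 among the 1898 members with 10 to 19 counts, 0.48 among 1177 with 20 to 49, 0.36 among 398 with 50 to 99, 0.24 among 147 with 100 or more but under 200, and 0.19 among 97 with 200 or more. The median half-width of the 95% interval was 1.94 on the log2 scale in the lowest of these classes and 0.33 in the highest. In the lowest class 70 members were called higher and 55 lower (6.59% together), and from 20 to 49 counts 47 higher and 73 lower (10.2%). From 50 to 99 counts 7 were called higher and 8 lower (3.77%). In the class from 100 to under 200 counts it was 1 in each direction (1.36%), and none of the 97 most abundant was called. The share over all members was 7.05%. The spread was nevertheless wider than counting error gives. The squared deviation of a member's penumbra count, divided by its binomial variance, averaged 1.70 over all members and 3.61 over those with 200 or more counts, so that the intervals given here are narrower than the actual scatter between the libraries.

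**Figure D1:**
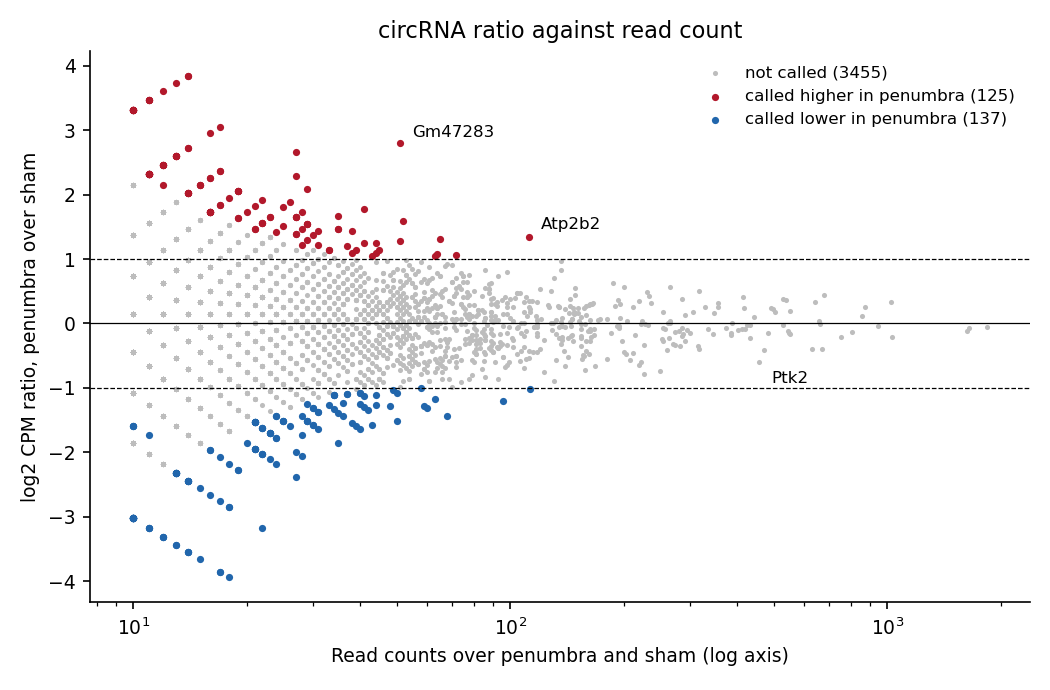
Log2 CPM ratio of penumbra over sham for each of the 3717 members (vertical axis) against its read counts over both libraries (log axis); red points were called higher, blue points called lower, grey points not called, and dashed lines mark 2-fold. A library with 0 counts was set to 3 counts. The cloud narrows from 10 to 19 counts (median absolute log2 ratio 0.70) to 200 or more counts (0.19), where no member was called.

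Among the most abundant circles the differences were modest. Of members with 200 or more counts, the highest ratio was that of exon 2 of Fmn1, a formin that assembles actin filaments, with 152 counts in penumbra and 113 in sham (ratio 1.49, 95% interval 1.16 to 1.92). Exons 6 to 9 of Rims1, a scaffold of the presynaptic active zone, had 115 counts in penumbra and 86 in sham (1.48, 1.11 to 1.98). Next came circles of Atxn1, the ataxin-1 gene, with 178 counts in penumbra and 139 in sham, of Smox, spermine oxidase, with 129 in penumbra and 102 in sham, and of the dystrobrevin gene Dtnb with 375 in penumbra and 305 in sham. At the other end stood exons 2 to 3 of Acaca, the enzyme that makes malonyl-CoA for fatty acid synthesis, with 78 counts in penumbra and 148 in sham (0.583, 0.437 to 0.772). Exons 3 to 5 of Klhdc2, a substrate receptor of a ubiquitin ligase, had 88 counts in penumbra and 162 in sham (0.601, 0.458 to 0.784). Circles of Rsrc2 with 80 counts in penumbra and 139 in sham and of the palmitoyltransferase Zdhhc21 with 83 in penumbra and 139 in sham followed. All of these lay within 2-fold. Of the 5 circles with most counts in penumbra, those of Tulp4 (855 counts in penumbra, 985 in sham), Ssbp2 (762 in penumbra and 885 in sham) and Gigyf2 (737 in penumbra and 887 in sham) had ratios of 0.960, 0.952 and 0.919, and the intervals of all 3 held 1. Exon 2 of Fat3, a large atypical cadherin, had 544 counts in penumbra and 479 in sham (1.26, 1.11 to 1.42), and exon 2 of the sodium-calcium exchanger Slc8a1 452 in penumbra and 420 in sham (1.19, 1.04 to 1.36).

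The members called higher were led by a circle on the Y chromosome in Gm47283 (chrY:90739142-90793417), with 44 counts in penumbra and 7 in sham (6.95, 3.11 to 18.3). A second circle from the same start had 12 counts in penumbra and 1 in sham (13.3, 1.96 to 567). The third Y-linked member, exons 6 to 9 of Uty, a histone demethylase gene with a partner on X, was not higher, with 15 counts in penumbra and 30 in sham (0.553, 0.276 to 1.06). Sequence copies on X or Y could share reads with Gm47283, whose copy number is not given in the files, so its values are uncertain.

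Of the autosomal circles called higher, exons 5 to 6 of Phip, which encodes a bromodomain protein that binds insulin receptor substrates, had 12 counts in penumbra and 0 in sham. Against the floor of 3 counts in the sham library this is at least 4.42-fold higher (limit of the interval 3.07). The shorter Rasgrf2 circle, from a calcium-activated exchange factor for Ras, had 23 counts in penumbra and 4 in sham (6.36, 2.17 to 25.3). Exons 4 to 5 of the pseudokinase gene Stk40 had 13 counts in penumbra and 1 in sham (14.4, 2.16 to 611). Exons 7 to 14 of Rabep1, rabaptin-5 of early endosomes, had 22 in penumbra and 5 in sham (4.87, 1.80 to 16.4), and exons 5 to 7 of Canx, the calnexin chaperone of the endoplasmic reticulum, 11 in penumbra and 1 in sham (12.2, 1.77 to 524). Circles of Sh2d4b with 15 counts in penumbra and 2 in sham and of Ctnnd2, delta-catenin, with 14 in penumbra and 2 in sham completed the 10 ranked first, with Snord22 below. Most rest on 1 to 5 sham counts, and the upper limits are correspondingly wide.

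The circles called lower and ranked first had 0 to 4 counts in penumbra. Exons 6 to 18 of Ptpn4, a tyrosine phosphatase found at glutamatergic synapses, had 0 counts in penumbra and 11 in sham, which is at least 3.32-fold lower against the floor of 3 counts in penumbra (limit 2.27). Circles of Atg2b, Alg6 and Eed each had 0 counts in penumbra and 10 in sham, at least 3.01-fold lower (limit 2.03). These proteins act in growth of the autophagosome membrane, in building the sugar chain for N-glycosylation, and in the Polycomb repressive complex that methylates histone H3. Exons 65 to 66 of Cfap54, a gene of motile cilia, had 1 count in penumbra and 16 in sham (0.0691, 0.00165 to 0.445), and exons 2 to 8 of Crebrf, a regulator of the unfolded protein response, the same counts. Dgke, a diacylglycerol kinase, had 1 count in penumbra and 14 in sham, Ncoa6, a nuclear receptor coactivator, 4 in penumbra and 23 in sham, and a circle inside Lrch2 off exon boundaries 2 in penumbra and 20 in sham. Among members at 10 or more counts only 4 were at 0 in penumbra, those of Ptpn4, Atg2b, Alg6 and Eed, and only 1 at 0 in sham, that of Phip. Each of these met the rule of 10 or more counts through 1 library alone, so its call follows from the rule. CircRNAs seen in 1 library with fewer counts are not members.

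Both directions held a circle whose ends equal those of a small nucleolar RNA gene, the short guide RNAs of rRNA modification. The one at Snord22 had 13 counts in penumbra and 1 in sham (14.4, 2.16 to 611), and the one at Snora61 (chr4:132310240-132310369) had 1 in penumbra and 17 in sham (0.0651, 0.00156 to 0.415). Of 3 such members, 1 was called higher and 1 lower, against 3.36% higher and 3.69% lower among all members. The counts of these 3 summed to 21 in each library. All 11 such circles detected, members or not, summed to 30 counts in penumbra and 50 in sham (0.664, 0.407 to 1.06).

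**Figure D2:**
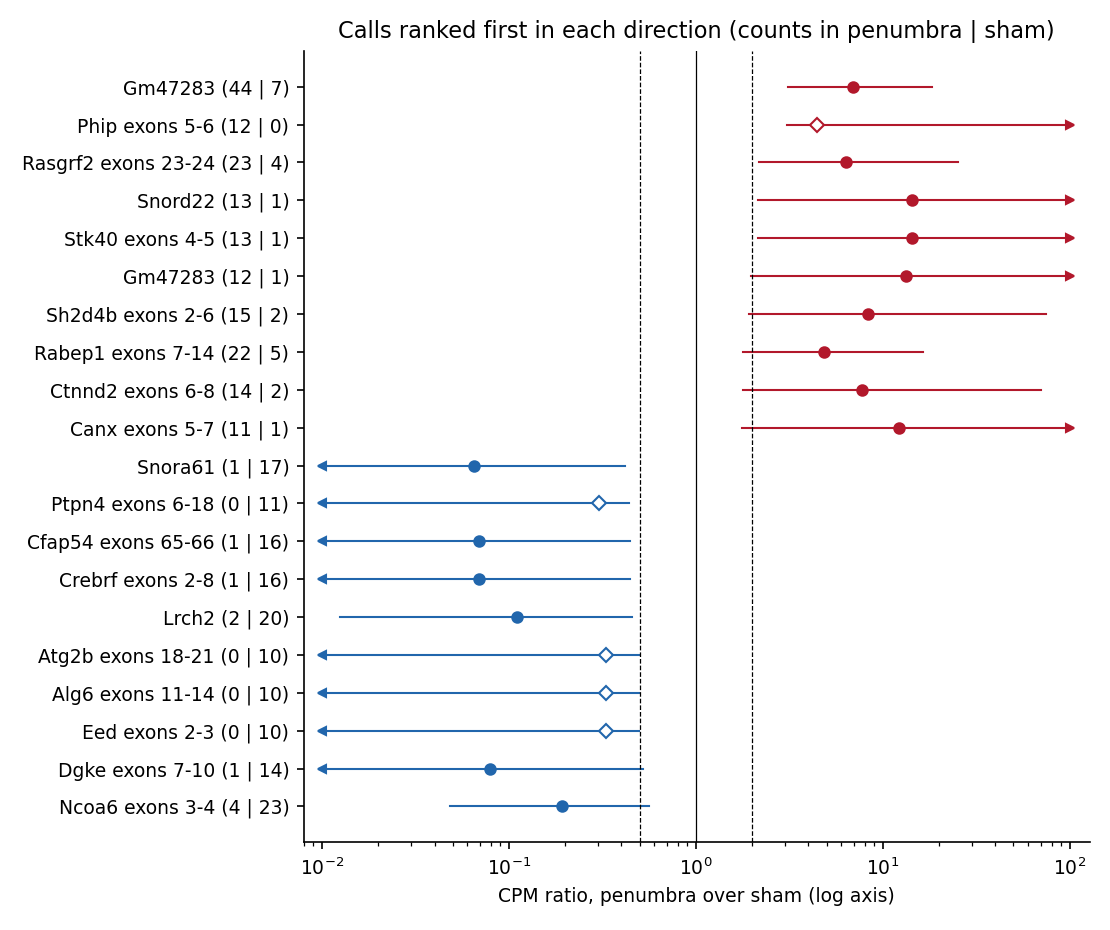
CPM ratio of penumbra over sham (log axis) for the 10 members called higher (red, above) and the 10 called lower (blue, below) that rank first by the interval limit nearest 1, with counts in penumbra and in sham beside each name. Bars are 95% exact conditional intervals covering counting error only, arrows run past the axis, open diamonds are bounds against a floor of 3 counts, and dashed lines mark 2-fold. The Gm47283 circle (44 counts in penumbra and 7 in sham) has the limit farthest from 1.

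Exons 11 to 13 of Atp2b2, the plasma membrane calcium pump 2 that exports calcium from neurons, form the member with most counts of all called higher: 78 counts (810 CPM) in penumbra and 34 (319 CPM) in sham. Its ratio was 2.54 (1.68 to 3.92; Fisher's exact test, adjusted p = 0.0048). It was the only one of the 9 Atp2b2 circles seen with 10 or more counts. All 9 together had 92 counts in penumbra and 44 in sham (2.31, 1.60 to 3.39), of which this circle held 78 in penumbra and 34 in sham. The GC content of this circle was 55.8%, within the GC class that had the highest ratio, given below. The Ptk2 circle past the adjusted p had 170 counts in penumbra and 286 in sham (0.657, 0.540 to 0.798; Fisher's exact test, adjusted p = 0.0148). Ptk2 encodes focal adhesion kinase and had 20 members, the same number as Rims2. Summed over all its circles Ptk2 had 503 counts in penumbra and 673 in sham (0.827, 0.735 to 0.929), and 8 of the 20 members had a ratio above 1. A Ccdc30 circle with 1 end on an exon boundary had 17 counts in penumbra and 51 in sham (0.369, 0.200 to 0.649).

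Summed over a host gene, ratios lay closer to 1 than those of single circles, which rest on fewer counts. In the 375 hosts with 3 or more members and 50 or more counts, the median absolute log2 ratio of counts summed over all circles of the host was 0.21. The same measure was 0.53 over all single members and 0.36 over those with 50 to 99 counts. From lowest to highest, the member ratios within a host spanned a median of 1.79 on the log2 scale, a range and so not comparable with these medians. The sums of 5 hosts were past 2-fold, and the interval left out 1 for 25 hosts higher and 36 lower. Pcca, the biotin-carrying subunit of propionyl-CoA carboxylase in mitochondria, had the highest sum, 62 counts in penumbra and 30 in sham (2.29, 1.46 to 3.66). All 5 of its members had a ratio above 1, with 8 to 11 counts each in penumbra and 3 to 5 in sham, and none was called alone. The hosts named as highest and lowest were chosen by this sum, which includes their members. Members on the same side of 1 are therefore not separate support for it. The receptor tyrosine phosphatase Ptprt followed with 54 counts in penumbra and 28 in sham (2.13, 1.33 to 3.50), then Mbtd1 with 68 in penumbra and 38 in sham, Canx with 47 in penumbra and 27 in sham and 9930021J03Rik with 79 in penumbra and 49 in sham. Over members alone the ratio was 1.66 for the 3 of Ptprt and 2.67 for the 4 of Canx, and with the GC trend described below removed from the same members 1.45 for Ptprt and 2.85 for Canx.

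The lowest host sum was that of Ccser2 with 23 counts in penumbra and 56 in sham (0.454, 0.267 to 0.750). Its 3 members all begin at exon 2, and all lay below 1, with 4, 10 and 4 counts in penumbra and 12, 21 and 18 in sham. The helicase gene Ddx10 had 21 counts in penumbra and 47 in sham (0.494, 0.281 to 0.843), again with all 3 members below 1. Lmbr1 had 41 in penumbra and 80 in sham, Pik3c2a, a lipid kinase of endosomes, 61 in penumbra and 108 in sham, and Strn3, a striatin subunit of a protein phosphatase 2A complex, 83 in penumbra and 142 in sham. Among hosts with fewer than 3 members, Eed had 15 counts in penumbra and 52 in sham over its 6 circles (0.319, 0.167 to 0.575), and both of its members were called lower.

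Of the 755 hosts with 2 or more members, 19 had 2 or more called, and in 7 of these 1 circle was called higher and another lower. Among all members 7.05% were called, which is a share per member and not per host. Whether calls gather in hosts was not tested. In 4 of the 7 the opposite circles use the same exon end at 1 side, which the junctions printed above show for Pak3 and Specc1. For Pak3, a kinase that shapes dendritic spines, the shared side is the start of exon 6. Exons 6 to 12 had 20 counts in penumbra and 9 in sham (2.46, 1.07 to 6.13), exons 6 to 17 had 1 in penumbra and 9 in sham (0.123, 0.00280 to 0.887), and exons 6 to 9 had 22 in penumbra and 20 in sham, uncalled. For Specc1, which encodes a cytoskeletal coiled-coil protein, the shared side is the end of exon 12. Exons 10 to 12 had 15 counts in penumbra and 6 in sham (2.76, 1.01 to 8.70), exons 9 to 12 had 7 in penumbra and 21 in sham (0.369, 0.132 to 0.900), and exons 8 to 12 had 35 in penumbra and 24 in sham, uncalled. The call of the higher Specc1 circle was lost with the GC trend removed (2.29).

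For Rasgrf2, the shorter circle (23 counts in penumbra, 4 in sham) has a neighbour that begins 3 bases earlier, with 12 counts in penumbra and 6 in sham (2.21, 0.768 to 7.18). In the junctions of those 2 circles the lower-case bases are the same, and the capitals of the longer circle start with 3 more bases. A longer circle from the same last exon, with its other end off any exon boundary (chr13:91968947-91988039), had 4 counts in penumbra and 18 in sham (0.246, 0.0605 to 0.746). In Pak3, Specc1 and Rasgrf2 the interval of the summed ratio held 1, with summed counts of 54 in penumbra and 53 in sham for Pak3, 69 in penumbra and 71 in sham for Specc1, and 43 in penumbra and 34 in sham for Rasgrf2. The 7 hosts also include Pank1 and the Rab GTPase regulator Tbc1d30, where exons 2 to 9 had 27 counts in penumbra and 11 in sham while exons 6 to 7 had 1 in penumbra and 10 in sham.

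Calls were also counted in pairs of members that share an end. There were 2015 pairs of members of 1 host that share an end, 270 of them with 1 member called and 10 with both. Among all members 7.05% were called, but that is a share per member. A pair can hold a call through either member, so a larger share of pairs is to be expected and is not comparable with it. Whether calls fall together in such pairs was not tested. The calls were opposite in 4 of these pairs and the same way in 6. Both circles were higher in 9930021J03Rik, Dennd1b and Gm47283, and both lower in Agtpbp1, Ash1l and Pigk. Circles of 1 host come from the same gene and are not independent of each other.

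**Figure D3:**
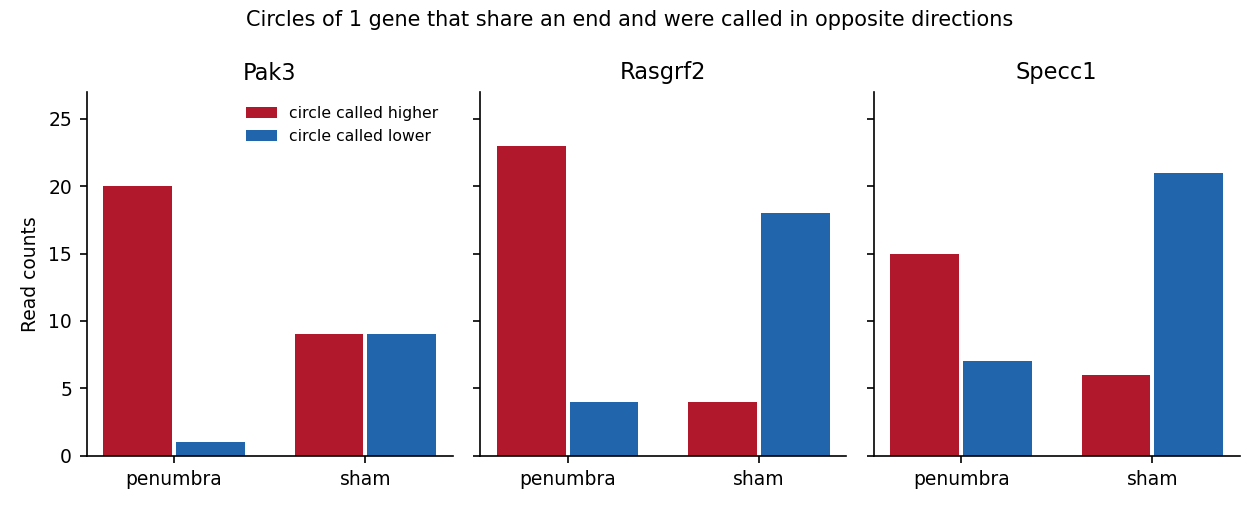
Read counts (vertical axis) in penumbra and in sham of the 2 circles of 1 host that share an exon end and were called in opposite directions, in Pak3, Rasgrf2 and Specc1; red bars are the circle called higher in penumbra and blue bars the circle called lower. In Rasgrf2 the higher circle had 23 counts in penumbra and 4 in sham, the lower one 4 in penumbra and 18 in sham.

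The structure of a circle could be derived for 3317 members from exons of 1 transcript, which gives the spliced length and its GC content. GC content showed the clearest order. Summed over members, the ratio of penumbra over sham was 0.836 (0.798 to 0.876) for the 170 circles under 40% GC, 0.912 (0.894 to 0.931) for 906 at 40 to 45%, 0.985 (0.967 to 1.00) for 1125 at 45 to 50%, 1.05 (1.03 to 1.08) for 782 at 50 to 55% and 1.17 (1.13 to 1.21) for 334 at 55% or more. Of the circles under 40% GC, 3 (1.76%) were called higher and 17 (10%) lower. Of those at 55% or more, 21 (6.29%) were called higher and 8 (2.40%) lower, against 3.36% higher and 3.69% lower among all members. The median GC was 49.4% for members called higher and 45.1% for those called lower, against 47.5% for all members with a structure. A smooth trend of the log2 ratio on GC ran from -0.36 at 35% to 0.32 at 60%. With that trend removed, 100 of these 3317 members were called higher and 122 lower, against 110 higher and 123 lower of the same members before removal. Of these calls, 90 of the higher and 103 of the lower were made without the correction too. The 5 GC classes then lay between 0.979 and 1.03, which follows from the removal, as the trend was fitted to these same members. With 1 library a side, whether this order belongs to the tissue or to the libraries cannot be told apart.

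Length showed a smaller difference. Circles of 1200 or more spliced bases, 378 in number, summed to 7146 counts in penumbra and 7150 in sham. Their ratio was 1.11 (1.07 to 1.14), and 1.12 with the GC trend removed. Those of 300 to under 600 bases, the most numerous class with 1303 members, had a ratio of 0.954 (0.938 to 0.970). The 200 circles of 1 exon had 1.07 (1.04 to 1.11), which became 1.03 with the GC trend removed. The 116 circles that span 100000 or more bases of genome had 1.08 (1.03 to 1.14). Circles beginning at exon 2, the first exon with a splice acceptor, had 0.982 (0.966 to 0.998) and those beginning at exon 3 or later 0.995 (0.981 to 1.01).

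By the position of their ends, classes of members had ratios between 0.875 and 1.08. The 3364 members with both ends on exon boundaries of 1 gene had a ratio of 0.990 (0.980 to 1.00), with 113 (3.36%) called higher and 123 (3.66%) lower. The 265 with 1 end on a boundary had 1.00 (0.956 to 1.04), the 41 inside a gene off any boundary 0.914 (0.822 to 1.02), and the 38 outside genes 0.875 (0.763 to 1.00). Of the 2613 members of coding exons alone, 93 (3.56%) were called higher and 92 (3.52%) lower. Of the 593 with coding and untranslated exons, 12 (2.02%) were called higher and 21 (3.54%) lower. Among all members the shares were 3.36% higher and 3.69% lower. Hosts with 1 member, with 2 to 4 and with 5 or more had ratios of 1.01, 0.989 and 0.976. On X, 74 members had a ratio of 1.02 (0.929 to 1.11).

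**Figure D4:**
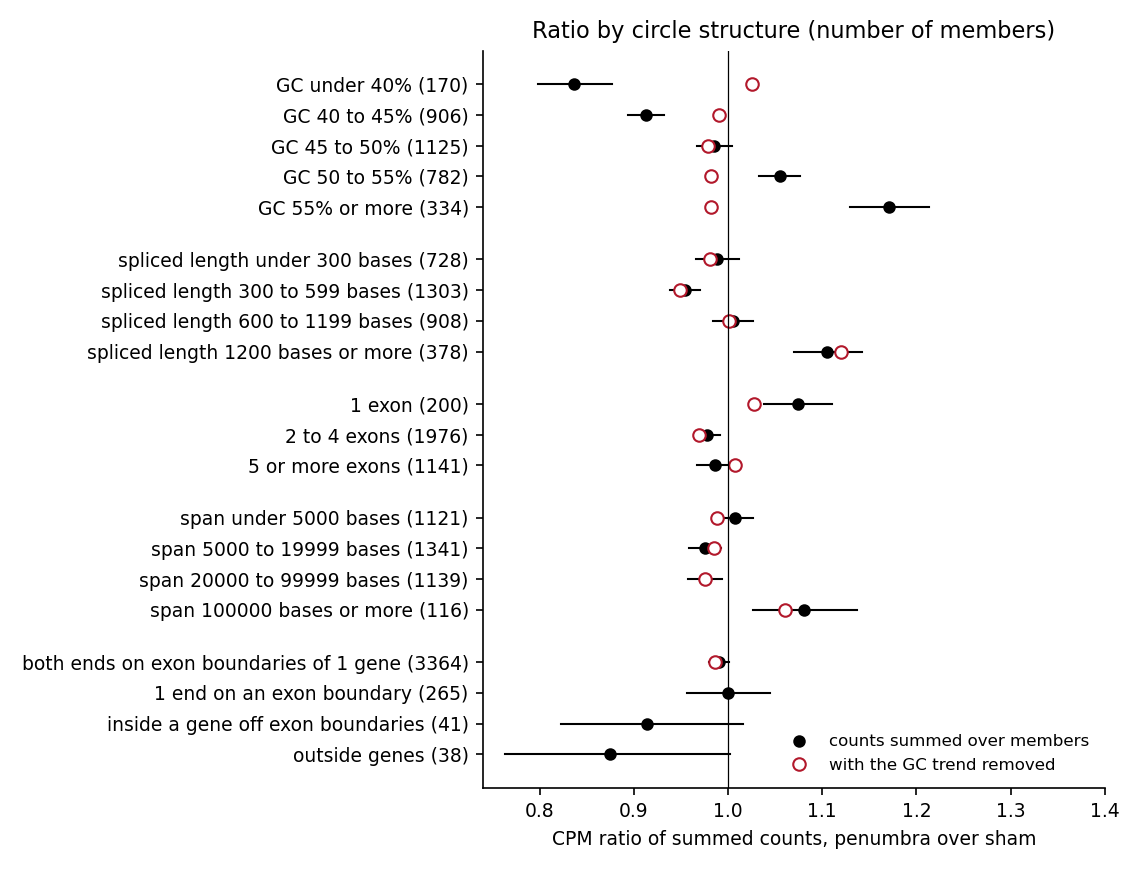
CPM ratio of penumbra over sham of counts summed over the members of each class of circle structure, with the number of members in brackets; black points carry 95% exact conditional intervals covering counting error only, and open red circles give the ratio with the GC trend removed, over the members with a GC value. The black points run from 0.836 under 40% GC to 1.17 at 55% or more, and the open circles of the GC classes lie between 0.979 and 1.03. The latter follows from the removal, as the trend was fitted to the same members.

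Host genes were grouped in 12 lists by function, some of which overlap. In bulk tissue, fewer cells of a type and less RNA per cell cannot be told apart. Called members stood on both sides in 10 of the 12 lists, and the counts called are to be read against 3.36% higher and 3.69% lower among all members, whose median log2 ratio was 0.01. A circle with equal counts in both libraries has a log2 ratio of 0.15, because the sham total is larger. List medians of 0.15 below are this value of equal counts and are not to be read as a shift from 0.01.

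Among hosts of calcium transport, 2 of 25 members were called higher and 1 lower, with a median log2 ratio of -0.08 and 963 counts in penumbra and 972 in sham (1.10, 1.00 to 1.20). Of these counts the exon 2 circle of Slc8a1 held 452 in penumbra and 420 in sham, and the Atp2b2 circle 78 in penumbra and 34 in sham. Only 10 of the 25 members had a ratio above 1. Beside Atp2b2, exons 24 to 27 of Ryr2, the calcium release channel of the endoplasmic reticulum, had 21 counts in penumbra and 10 in sham (2.32, 1.05 to 5.52), a call lost with the GC trend removed (2.22). Exons 3 to 11 of Slc8a1, which exchanges sodium for calcium at the cell membrane, had 5 counts in penumbra and 19 in sham (0.291, 0.0849 to 0.806), in contrast to the exon 2 circle given above.

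Presynaptic release, with 114 members, had 6 called higher and 2 lower and a median log2 ratio of 0.15 (2994 counts in penumbra, 3157 in sham; 1.05, 0.997 to 1.10). The higher ones included 2 Rims2 circles, exons 5 to 21 with 10 counts in penumbra and 1 in sham (11.1, 1.57 to 480) and exons 14 to 17 with 35 in penumbra and 16 in sham (2.42, 1.30 to 4.68), from a gene whose 62 circles together had 661 counts in penumbra and 720 in sham. Exons 2 to 3 of Rimbp2, which ties calcium channels to the release site, had 14 counts in penumbra and 3 in sham (5.16, 1.44 to 28.0). A circle of the active zone scaffold gene Erc2 was called lower, with 1 count in penumbra and 9 in sham.

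In the postsynaptic density and glutamate receptor list, 2 of 73 members were called higher and 5 lower, with a median log2 ratio of 0.05 (1427 counts in penumbra, 1682 in sham; 0.938, 0.874 to 1.01). Exons 3 to 5 of Gria2, the AMPA receptor subunit that limits calcium entry, had 1 count in penumbra and 11 in sham (0.101, 0.00234 to 0.692). Exons 2 to 3 of the scaffold gene Magi2 had 13 in penumbra and 31 in sham (0.464, 0.223 to 0.912), and exon 2 of Grm7, a metabotropic glutamate receptor that sits mainly on presynaptic terminals, 9 in penumbra and 24 in sham (0.415, 0.170 to 0.924). Magi2 as a host had 130 counts in penumbra and 188 in sham (0.765, 0.607 to 0.961). The 2 higher ones, of the exchange factor gene Iqsec1 and the scaffold gene Cnksr2, each had 12 counts in penumbra and 4 in sham (3.32, with a lower limit of 1.01). With DESeq2 size factors both ratios were 3.29 and neither was called, and with the GC trend removed Iqsec1 stood at 2.69, uncalled, and Cnksr2 at 3.70, called.

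Of 64 members from voltage-gated and leak channel genes, 4 were called higher and 2 lower, with a median log2 ratio of 0.15 (1339 counts in penumbra, 1466 in sham; 1.01, 0.937 to 1.09). Exons 8 to 9 of Cacna1b, the N-type calcium channel of nerve terminals, had 45 counts in penumbra and 20 in sham (2.49, 1.44 to 4.45). Exon 2 of Scn8a, a sodium channel of the axon initial segment, had 9 in penumbra and 1 in sham (9.95, 1.38 to 436), and exons 2 to 3 of the potassium channel gene Kcnq5 11 in penumbra and 2 in sham (6.08, 1.33 to 56.5). Exons 2 to 3 of Cacna1c, the L-type calcium channel, went the other way with 12 counts in penumbra and 32 in sham (0.415, 0.195 to 0.827), and so did exons 8 to 13 of the sodium leak channel gene Nalcn with 2 in penumbra and 11 in sham. The member with most counts, exons 4 to 13 of the sodium-activated potassium channel gene Kcnt2, had 129 counts in penumbra and 188 in sham (0.759, 0.602 to 0.955).

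Cell and focal adhesion hosts had 2 of 51 members called higher and 3 lower, with a median log2 ratio of 0.15 (1490 counts in penumbra, 1579 in sham; 1.04, 0.972 to 1.12). Exons 6 to 8 of Ctnnd2, which binds cadherins at synapses, had 14 counts in penumbra and 2 in sham (7.74, 1.78 to 70.2), and exons 26 to 27 of Dock1, an exchange factor for Rac, 11 in penumbra and 2 in sham (6.08, 1.33 to 56.5). Its 69.3% GC placed the Ctnnd2 circle in the class with the highest ratio. The lower ones were 2 Ptk2 circles, with 5 counts in penumbra and 18 in sham and with 3 in penumbra and 13 in sham, and exons 22 to 24 of the integrin gene Itga8 with 5 in penumbra and 16 in sham.

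Stress and cell death signalling hosts had 1 of 33 members called higher and 3 lower, with a median log2 ratio of -0.27 although the summed ratio was 1.01 (699 counts in penumbra, 762 in sham; 0.914 to 1.13). Exons 3 to 6 of the kinase gene Map3k3 had 28 counts in penumbra and 13 in sham (2.38, 1.19 to 5.01). The lower ones were exons 2 to 8 of Stk3, a kinase of the Hippo pathway, with 6 counts in penumbra and 18 in sham, exons 2 to 3 of Map2k4, an activator of the stress kinases JNK and p38, with 11 in penumbra and 26 in sham, and exons 2 to 5 of Atf2, a transcription factor they phosphorylate, with 5 in penumbra and 16 in sham. The upper limits were 0.969 for Stk3 (ratio 0.369), 0.980 for Map2k4 (0.468) and 0.987 for Atf2 (0.346), all close to 1. These 3 circles have 41.2% to 42.2% GC. With the GC trend removed their ratios were 0.421 for Stk3, 0.523 for Map2k4 and 0.383 for Atf2, and none of the 3 was called.

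Autophagy hosts had 0 of 31 members called higher and 3 lower, a median log2 ratio of -0.12 and 277 counts in penumbra against 362 in sham. Their summed ratio of 0.846 (0.721 to 0.992) was the lowest of the 12 lists, and over the 28 members with a GC value it was 0.822, and 0.848 with the GC trend removed. Beside Atg2b, exons 11 to 12 of Ambra1, which activates the Beclin complex, had 7 counts in penumbra and 22 in sham (0.352, 0.127 to 0.853), and exons 3 to 6 of Uvrag, a partner of the same complex, 2 in penumbra and 11 in sham (0.201, 0.0217 to 0.921). The member with most counts, exons 2 to 10 of the protease gene Atg4c, was not called, with 21 counts in penumbra and 34 in sham (0.683, 0.377 to 1.21). The upper limit of the sum is close to 1 while the scatter of members exceeds counting error.

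Energy metabolism hosts had 1 of 22 members called in each direction, with a median log2 ratio of 0.35 but a summed ratio of 0.899 (390 counts in penumbra, 480 in sham; 0.784 to 1.03). Their most abundant member was the Acaca circle given above, which held 78 of these counts in penumbra and 148 in sham. The 5 Pcca circles, all with a ratio above 1, were among the 22 members. Both called circles come from the citric acid cycle. Exon 7 of Cs, citrate synthase, had 20 counts in penumbra and 6 in sham (3.69, 1.43 to 11.2), and exons 3 to 5 of the oxoglutarate dehydrogenase gene Ogdh 7 in penumbra and 23 in sham (0.337, 0.122 to 0.810).

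Among hosts of chromatin and transcription cofactors, 3 of 92 members were called higher and 7 lower, with a median log2 ratio of -0.01 (2000 counts in penumbra, 2349 in sham; 0.942, 0.887 to 1.00). Beside Eed, exons 2 to 5 of the histone methyltransferase gene Ash1l had 2 counts in penumbra and 16 in sham (0.138, 0.0154 to 0.588), and exons 4 to 8 of Ehmt1, another histone methyltransferase, 4 in penumbra and 20 in sham (0.221, 0.0550 to 0.660). Circles of the Mediator gene Med12l with 10 counts in penumbra and 2 in sham, of the acetyltransferase gene Ep300 with 16 in penumbra and 6 in sham, and of the methyltransferase gene Kmt2c with 22 in penumbra and 11 in sham were higher. Exon 2 of Med13l, the most abundant circle of the list, had 451 counts in penumbra and 578 in sham (0.863, 0.761 to 0.978).

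Ubiquitin ligase and deubiquitinase hosts had 5 of 82 members called higher and 2 lower, with a median log2 ratio of -0.03 (1557 counts in penumbra, 1734 in sham; 0.993, 0.927 to 1.06). Circles of the ligase genes Ttc3 and Itch each had 12 counts in penumbra and 2 in sham (6.64, 1.48 to 61.0), and exons 3 to 14 of Anapc1, the largest subunit of the anaphase-promoting complex, had 13 in penumbra and 3 in sham. The lower ones, of the deubiquitinase gene Usp34 with 5 counts in penumbra and 18 in sham and of the F-box gene Fbxw11 with 10 in penumbra and 24 in sham, had ratios of 0.307 for Usp34 and 0.461 for Fbxw11. With the GC trend removed the ratios were 0.369 for Usp34 and 0.496 for Fbxw11, and neither was called.

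RNA-binding and splicing regulator hosts had 2 of 50 members called higher and 0 lower, with a median log2 ratio of -0.06 (753 counts in penumbra, 790 in sham; 1.05, 0.953 to 1.17). Exons 2 to 4 of Qk, whose protein quaking promotes circle formation in human cells, had 20 counts in penumbra and 7 in sham (3.16, 1.28 to 8.84). Exons 2 to 6 of Elavl3, a neuronal RNA-binding protein, had 21 in penumbra and 8 in sham (2.90, 1.24 to 7.58), while the shorter circle of its exons 2 to 3 had 96 in penumbra and 100 in sham (1.06, 0.794 to 1.42). The host genes named in work on circRNAs in stroke or brain injury had 118 members, 4 called in each direction, with a median log2 ratio of -0.01 (4987 counts in penumbra, 5471 in sham; 1.01, 0.970 to 1.05). Called members of this list not yet named were exons 2 to 8 of the transcription factor gene Nfix with 15 counts in penumbra and 4 in sham (4.15, 1.32 to 17.2), and exons 38 to 41 of the lipoprotein receptor gene Lrp1b with 9 in penumbra and 29 in sham (0.343, 0.143 to 0.745).

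**Figure D5:**
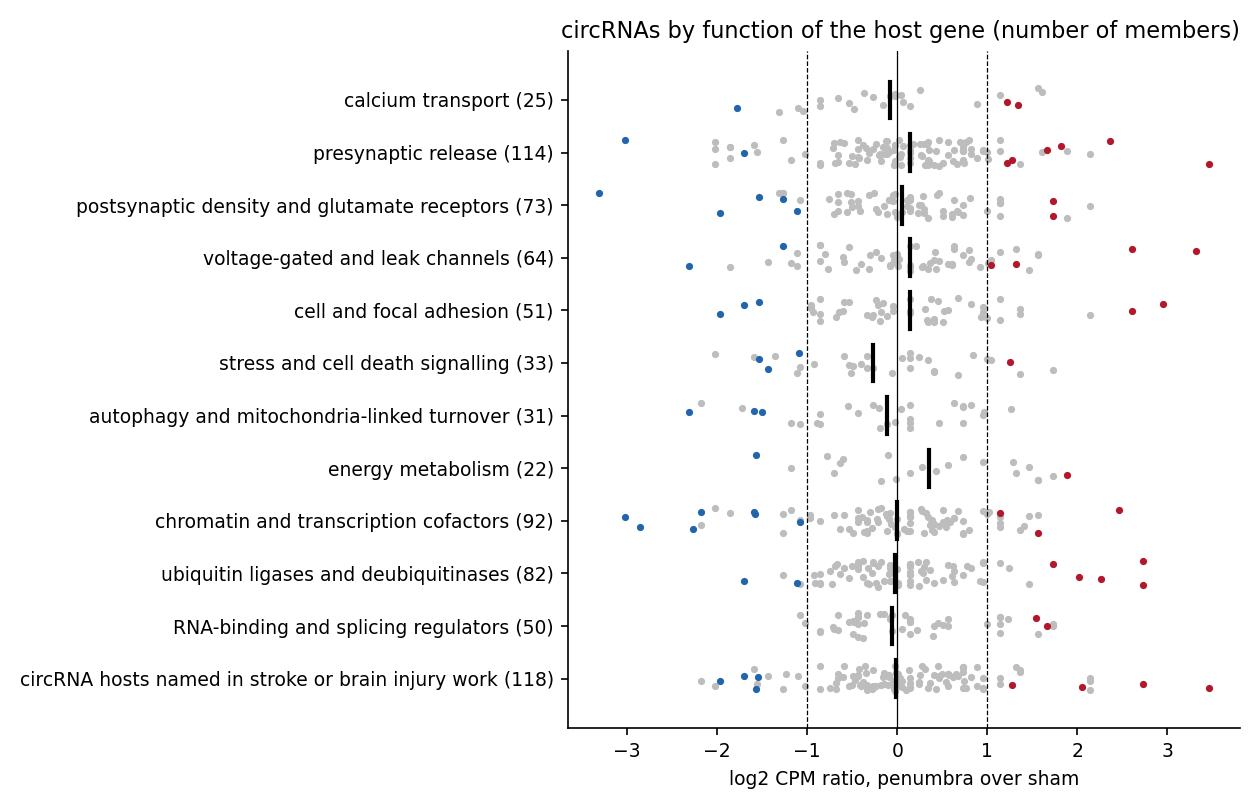
Log2 CPM ratio of penumbra over sham for every member whose host is in 1 of the 12 function lists, with the number of members in brackets; red points were called higher, blue called lower, grey not called, black bars are list medians, and dashed lines mark 2-fold. The medians lie between -0.27 (stress and cell death signalling) and 0.35 (energy metabolism), and called members stand on both sides in 10 of the lists.

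Markers of cell types, 8 genes each, could be read only through their circles. Their sums take all detected circles, also those with fewer than 10 counts, which are not members. The 4 neuronal markers with a circle, Rbfox3, Snap25, Syt1 and Map2, summed to 136 counts in penumbra and 143 in sham (1.05, 0.826 to 1.34). Within them, exons 7 to 10 of Syt1, the calcium sensor of vesicle release, had 20 counts in penumbra and 7 in sham, and exons 3 to 4 of the dendritic protein gene Map2 had 1 in penumbra and 9 in sham. The 2 astrocyte markers with a circle, the transporter genes Slc1a2 and Slc4a4, summed to 28 counts in penumbra and 16 in sham (1.94, 1.01 to 3.83). Only 1 of these circles was a member, with 6 counts in penumbra and 6 in sham (1.11, 0.296 to 4.14), so the excess lies in circles below the count rule. The 4 oligodendrocyte markers with a circle, none of which was a member, summed to 8 counts in penumbra and 15 in sham (0.590, 0.217 to 1.48). Circles of the 8 microglial markers were at 0 in both libraries, and of the 8 endothelial ones only 1 count was found, in penumbra. The striatal markers Pde10a and Bcl11b, of which Bcl11b is also expressed in cortex, summed to 37 counts in penumbra and 42 in sham (0.974, 0.609 to 1.55). The part of cell makeup in the differences above was not tested.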

How the data were processed

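RNA from the penumbra of 6 mice 3 h after MCAO and from sham cortex gave 1 rRNA-depleted library each, and each was placed in its group by its title. The deposited table holds whole-number read counts per circRNA, named by chromosome, start and end, without normalization. The authors used TopHat2 2.0.10, Bowtie and mm9, per the submitters' processing notes. The circRNA caller is not given in the sources used here, and the labels name 2 library kits. The coordinates follow GRCm38: 89.1% of starts lay on exon boundaries of GENCODE M21, against 0.192% when moved by 1 base. Host genes, exons, spliced sequence and GC were taken from that annotation, with the strand of the host, because the table gives none.

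Counts were scaled to each library's total. The floor of 3 counts equals 31.1 CPM in penumbra and 28.2 CPM in sham, and a count of 0 was set to it for a bound. Ratios carry 95% exact conditional (Clopper-Pearson) intervals, which cover counting error only, as reads without molecular identifiers may be PCR copies. Fisher's exact test with Benjamini-Hochberg adjustment was run in scipy 1.17.1. The alternatives were TMM factors (edgeR 4.0.16), size factors (DESeq2 1.42.0), a lowess trend on GC (statsmodels 0.14.6, fraction 0.5, pseudocount 0.5) and other count minimums, folds and intervals. Procedures were tested on simulated data.

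Circles were named by rule: the 10 ranked first in each direction by the interval limit nearest 1, members with an adjusted p under 0.05, the 5 most abundant in penumbra, the 5 highest and 5 lowest ratios at 200 or more counts and among hosts with 3 or more members and 50 or more counts, called and most abundant members of each list, hosts called in both directions, and the Atp2b2, Ptk2, Ccdc30 and Fam53b circles. Uty, Dennd1b and the other hosts of pairs that share an end were added after their values were seen. Members and lists were chosen with earlier results of these data known. Circles of some hosts that the naming rule selects are not reported here.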

Additional observations from a re-analysis of the deposited data

How the results depend on the processing

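The summed ratio crossed 1 with the GC trend removed for RNA-binding (0.982) and ubiquitin (1.06) hosts, whose intervals held 1; over the same members without removal it was 1.06 for RNA-binding and 0.998 for ubiquitin hosts. The count of members past an adjusted p of 0.05 was 3 as reported, 6 with TMM factors, 11 with size factors from DESeq2, 7 after removal of the GC trend and 16 with a minimum of 30 counts. Members called higher were 198 at a minimum of 5 counts and also with no minimum, 26 at 30 counts and 39 with a 99% interval. Members called lower were 41 at 30 counts and 46 with a 99% interval. The median absolute log2 ratio was 0.35 at 30 counts, and the summed ratio of energy metabolism hosts 0.728. With the GC trend removed, the summed ratio was 1.03 for circles of 1 exon, 1.01 for 5 or more exons, 0.988 for spans under 5000 bases (1.01 before removal over the same members), 1.03 under 40% GC, 0.990 at 40 to 45%, 0.982 at 50 to 55% and 0.982 at 55% or more. Of 84 calls of named circles, TMM factors lost 0 and DESeq2 size factors 3, and removing the GC trend lost 10 of the 75 with a GC value. Values of members with a GC value, trend not removed, were added after seeing the data. TMM and DESeq2 factors moved all log2 ratios by -0.004 and -0.013. Depth limits single circles: at 10 to 19 counts the median interval was wider than 2-fold in either direction. No paired analysis was possible because each group has 1 library.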

Other observations

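Fam53b, a host with no called circle, had 3 members. Exons 2 to 4 had 53 counts in penumbra and 33 in sham (1.78, 1.13 to 2.83), exons 2 to 3 had 74 in penumbra and 93 in sham (0.880, 0.640 to 1.21), and exon 4 alone 7 in penumbra and 3 in sham (2.58, 0.589 to 15.5). The host summed to 135 counts in penumbra and 130 in sham (1.15, 0.896 to 1.47).

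CircRNAs with 1 count in a library, whatever their count in the other, were more numerous in the smaller library. They numbered 6163 in penumbra and 5361 in sham, and they include some members. Detected in penumbra and not in sham were 5001, and in sham and not in penumbra 4657. The squared deviation of the penumbra count over its binomial variance averaged 1.53, 1.68, 1.96, 2.01 and 3.61 in the classes from 10 to 19 up to 200 or more counts.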
